A study of Rattus norvegicus with 6 samples.

Results

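The natriuretic peptide system was followed here through 9 genes, Nppa, Nppb, Nppc, Corin, Furin, Npr1, Npr2, Npr3 and Mme, taken by gene name from a table of 33565 rows. Each name matched a row, and all 9 genes passed the filter on low counts, as did 15075 rows in all. The libraries came from primary cardiomyocytes of 7-day-old Sprague-Dawley rats, cultured in serum-containing medium. Of the 6 libraries, 3 were from cells given 100 nM progesterone, a steroid hormone, for 24 hours and 3 from cells given vehicle, whose composition is not stated in the labels. The labels name no engineered allele in either group. The labels call the samples of a group biological replicates without saying whether these were separate animals or cultures, so the tests weigh group differences against a spread among libraries that could be technical only.

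The natriuretic peptides are hormones with a disulfide-closed ring. Heart muscle cells make atrial natriuretic peptide (ANP, gene Nppa) and brain natriuretic peptide (BNP, gene Nppb), while C-type natriuretic peptide (CNP, gene Nppc) is known mainly from endothelium, cartilage and brain. Corin, a membrane serine protease of cardiomyocytes, cuts pro-ANP to ANP, and furin, a protease of the secretory pathway, cuts pro-BNP and pro-CNP. NPR-A (Npr1) answers ANP and BNP, and NPR-B (Npr2) answers CNP, each by making cyclic GMP. NPR-C (Npr3) binds all the peptides and removes them, and neprilysin (Mme) degrades them at the cell surface. In the postnatal heart Nppa falls silent in most of the ventricle, and its return is a familiar sign of hypertrophy and of a fetal-like state.

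The genes of both cardiac hormones were higher with progesterone, and they lie side by side on chromosome 5, so the sequences in front of them are shown. These are RefSeq sequences of the GRCr8 build, plus strand, each ending at the base before the start of the RefSeq gene, at chr5:163711934-163712183 for Nppa (250 bases) and chr5:163699758-163699954 for Nppb (197 bases). Capitals mark each match on either strand to GATAA (the core read by GATA factors), AAGTG (a site read by Nkx2-5), CATTCC (the MCAT element read by TEAD factors, the DNA-binding partners of YAP) or TATAAA (the TATA box).
Nppa: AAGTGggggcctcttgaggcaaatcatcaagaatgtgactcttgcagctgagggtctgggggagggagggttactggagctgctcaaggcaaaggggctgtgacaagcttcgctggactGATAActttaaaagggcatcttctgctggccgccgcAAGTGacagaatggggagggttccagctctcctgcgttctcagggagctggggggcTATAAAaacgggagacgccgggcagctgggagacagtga
Nppb: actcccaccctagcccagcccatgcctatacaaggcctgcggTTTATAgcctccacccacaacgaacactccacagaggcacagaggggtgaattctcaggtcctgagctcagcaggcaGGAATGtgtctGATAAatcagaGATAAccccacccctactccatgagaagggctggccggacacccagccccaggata
The table's 250-base window before each start was searched for 8 motifs in all. In front of Nppa it held 1 GATAA, 2 AAGTG and 1 TATAAA. In front of Nppb it held 3 GATAA, 1 CATTCC, read on the minus strand as GGAATG, and 1 TATAAA on the minus strand. The last GATAA of Nppb lies across the end of the printed stretch, since the window for Nppb runs on into the RefSeq gene. No match overlapped another. Over the 33469 promoters of the table, 23.5% held GATAA, 40.6% AAGTG, 12.1% CATTCC and 12.9% TATAAA. The T-box motif GGTGTGA (in 3.22% of promoters), the AP-1 motif TGACTCA (4.05%) and the steroid receptor half-site TGTTCT (17.5%) were not in either window. Nor was the strict CArG box of SRF (CCWWWWWWGG, W being A or T, 1.5%). Only exact matches were counted, and the Nppa stretch holds ctttaaaagg, which differs from that pattern in 1 letter. Of the 5 other genes with an entry, Nppc had 1 TATAAA, and Corin, Npr1, Npr3 and Mme had no match to the 8 motifs. A match is a run of letters and does not show a bound site. Npr2 and Furin had no entry.

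Progesterone libraries had more mRNA of ANP, BNP, corin and the clearance receptor, and less mRNA of furin, of both guanylyl cyclase receptors and of neprilysin. The test found 4 of the 9 genes higher (Nppa, Nppb, Corin and Npr3), 4 lower (Furin, Npr1, Npr2 and Mme) and no call for Nppc. Called means an adjusted p under 0.05 in edgeR's quasi-likelihood test. The same test called 63.0% of all 15075 genes tested, 31.2% as higher and 31.8% as lower, so 8 calls among 9 genes stand against a background in which most genes were called. With upper quartile scaling the share of calls that were higher was 60.1%, against 49.6% as reported, and the 8 called genes kept their calls and directions. In 8 of the 9 genes the CPM values (CPM being counts scaled to the TMM-adjusted library total) of the groups did not overlap, which held for 68.6% of all genes tested. Of the 8, 4 lay higher and 4 lower with progesterone, against 33.8% and 34.8% of all genes tested. The median log2 fold change of the 9 genes was 0.40, against 0.0033 over all genes tested. The median size of the change, without its sign, was 0.52 log2 units, against 0.34 over all genes tested. Mme had the largest change of the 9, at a size that exceeded 96.9% of all genes tested.

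**Figure D1:**
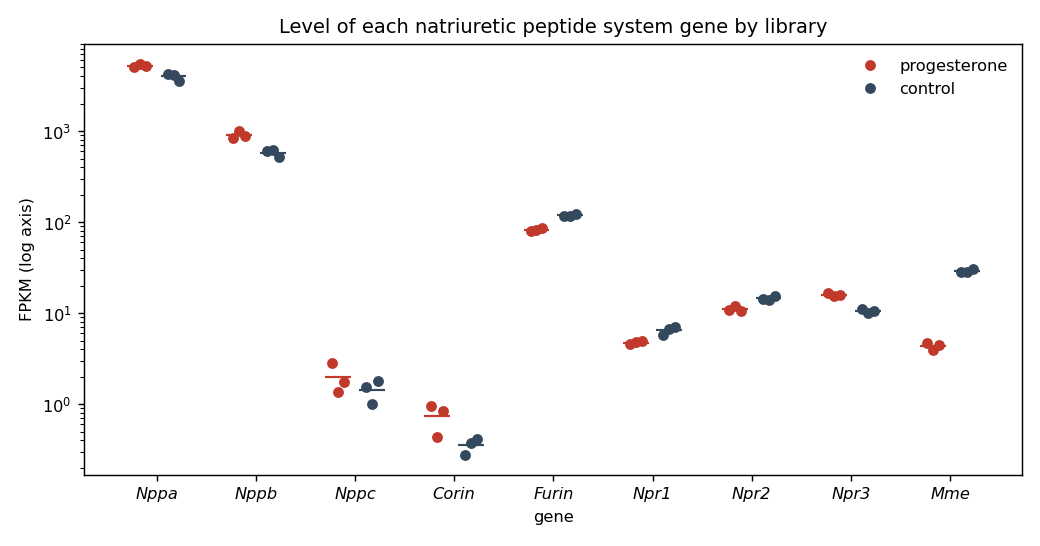
FPKM (abundance per transcript length and library total, log axis) of the 9 genes, with progesterone libraries in red to the left of control libraries in dark blue, a point for each of 3 libraries per group and a bar for the mean. The lowest library of Nppa sits at 3595, Corin is below 1, and the groups overlap for Nppc alone.

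The levels per length, as the deposited FPKM, spanned a wide range, and their order differed between the groups in the middle of the range. In progesterone libraries the mean FPKM ran from 5239 for Nppa through 905 for Nppb, 83.0 for Furin, 15.9 for Npr3, 11.1 for Npr2, 4.76 for Npr1, 4.38 for Mme and 1.99 for Nppc to 0.752 for Corin. Npr1 and Mme were the neighbours in that order whose libraries overlapped. In control libraries the order was 3984 for Nppa, 580 for Nppb, 119 for Furin, 29.0 for Mme, 14.6 for Npr2, 10.6 for Npr3, 6.53 for Npr1, 1.45 for Nppc and 0.356 for Corin, and no neighbours overlapped. Mme thus stood below all 3 receptors with progesterone, overlapping Npr1, and above all of them in controls, and Npr3 stood above Npr2 with progesterone and below it in controls. By mean FPKM over all rows, Nppa ranked 5 with progesterone and 4 in controls, and Nppb ranked 58 with progesterone and 118 in controls.

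Nppa had 4460, 4924 and 4624 CPM in the 3 progesterone libraries, against 3768, 3669 and 3203 CPM in the 3 control libraries. Every progesterone library was above every control library, and control replicate 3 was the lowest of all. The log2 fold change was 0.40 ± 0.06 (SE), a rise of 1.32-fold, with an adjusted p of 7.99e-05 in edgeR's test. Nppa took 0.445%, 0.484% and 0.463% of all counts in progesterone libraries, against 0.377%, 0.371% and 0.321% in control libraries. Its row lies at 164808323 to 164809705 on the plus strand of chromosome 5, in the table's coordinates, whose rat build the sources used here do not name.

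Nppb, whose peptide is the blood marker of ventricular wall stress, had 561, 671 and 602 CPM in progesterone libraries, against 410, 414 and 350 CPM in control libraries. The groups did not overlap, and progesterone replicate 2 and control replicate 3 were the extremes, as they were for Nppa. The log2 fold change of Nppb was 0.64 ± 0.09 (SE), a rise of 1.56-fold (adjusted p = 0.000364, edgeR). The row lies at 164796185 to 164797531 on the plus strand of chromosome 5, and 10791 bases separate its end from the start of Nppa.

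Within a library the balance between the hormones was lower in ANP with progesterone. The ratio of Nppa to Nppb FPKM was 6.03, 5.56 and 5.82 in progesterone libraries, against 6.97, 6.71 and 6.94 in control libraries. The 3 progesterone values lay below the 3 control values, and the ratio was 0.844 times that of the controls (exact permutation test, two-sided p = 0.1, the smallest that 3 against 3 can give). This was 1 of 4 within-library quantities tested, and its adjusted p was 0.133 (exact permutation test, Benjamini-Hochberg). Such a ratio does not depend on how libraries are scaled.

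Nppc was close to the lower limit of the test. It had 61, 30 and 42 counts in progesterone libraries, against 40, 24 and 42 counts in control libraries, and the groups overlapped. The log2 fold change was 0.46, with a 95% interval from -0.17 to 1.09 and an adjusted p of 0.188 (edgeR), so at this depth neither a small decrease nor a change of about 2-fold upward lies outside the interval. Its row is at 93731436 to 93735636 on the minus strand of chromosome 9.

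**Figure D2:**
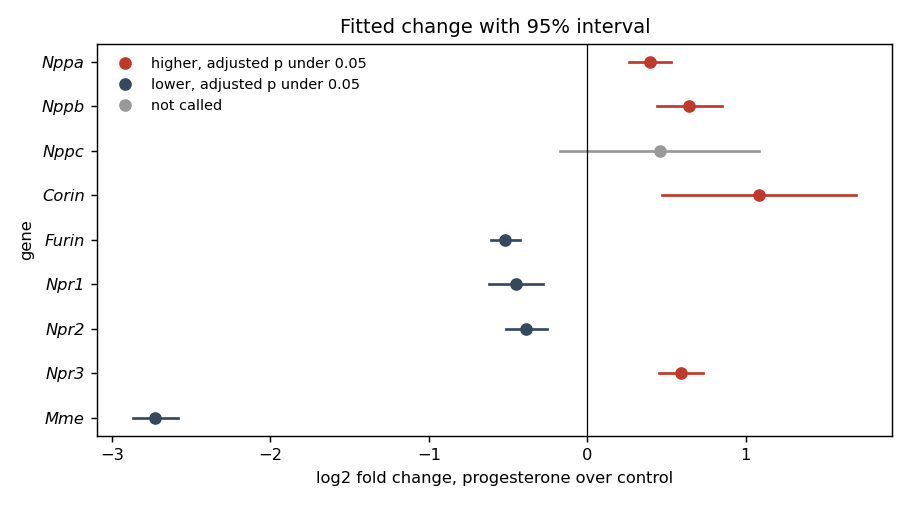
Fitted log2 fold change of progesterone over control for the 9 genes, with 95% intervals, coloured by call (red higher, dark blue lower, grey not called). Mme lies at -2.73, the other called genes lie between -0.52 and 1.08, and the interval of Nppc includes 0.

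The genes of the 2 processing proteases moved apart. Corin had 3.60, 1.65 and 3.16 CPM in progesterone libraries, against 1.02, 1.42 and 1.53 CPM in control libraries. The groups did not overlap, but progesterone replicate 2 lay close to the highest control. Behind these values stand 184 counts over the progesterone libraries and 94 over the control libraries. The log2 fold change was 1.08 ± 0.29 (SE; 95% interval 0.47 to 1.70; adjusted p = 0.00421, edgeR), a rise of 2.12-fold. On the log2(FPKM + 1) scale, which compresses low values, the difference was 0.36 (adjusted p = 0.0268, limma). Corin lies at 38247791 to 38473648 on the plus strand of chromosome 14.

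Furin had 344, 353 and 370 CPM in progesterone libraries, against 501, 504 and 522 CPM in control libraries. All 3 progesterone libraries were lower, and within each group the values lay close together. The gene fell 1.43-fold (log2 fold change -0.52 ± 0.04, SE; adjusted p = 3.74e-08, edgeR). Furin cuts many other precursors, among them those of growth factors and matrix proteases. Its row lies at 142185094 to 142197182 on the minus strand of chromosome 1.

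Among the receptors, both guanylyl cyclases were lower and the clearance receptor was higher. Npr1, the receptor of ANP and BNP, had 18.7, 19.7 and 20.0 CPM in progesterone libraries, against 23.6, 27.8 and 28.6 CPM in control libraries. The groups did not overlap, with control replicate 1 the closest to the progesterone libraries, and the fall was 1.37-fold (log2 fold change -0.45 ± 0.08, SE; adjusted p = 0.000144, edgeR). Npr2, the receptor of CNP, had 43.4, 48.6 and 42.3 CPM in progesterone libraries, against 56.7, 56.7 and 61.9 CPM in control libraries. It fell 1.31-fold (log2 fold change -0.39 ± 0.06, SE; adjusted p = 4.74e-05, edgeR), again with no overlap. Npr1 lies at 189840403 to 189856090 on the minus strand of chromosome 2, and Npr2 at 59128315 to 59147255 on the plus strand of chromosome 5.

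Npr3, the clearance receptor, had 33.8, 32.1 and 32.2 CPM in progesterone libraries, against 22.9, 20.6 and 21.6 CPM in control libraries. Every progesterone library was above every control library, and the rise was 1.5-fold (log2 fold change 0.59 ± 0.07, SE; adjusted p = 1.20e-06, edgeR). Npr3 also marks endocardium. Of 5 other endocardial markers, 4 were higher and none was lower with progesterone, and their summed level was 281 to 295 CPM, against 165 to 182 CPM in controls. Most of that sum was Cdh11 alone, which averaged 219 CPM with progesterone and 129 CPM in controls. Of 9 endothelial markers, by contrast, 2 were higher and 4 (Tek, Emcn, Egfl7 and Eng) were lower. The part of endocardial cells in the rise of Npr3 was not tested. In RNA from a whole culture, a change in the number of cells of a type and a change in RNA per cell cannot be told apart. Npr3 lies at 61888950 to 61949926 on the minus strand of chromosome 2.

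As a share of the summed FPKM of the 3 receptors, Npr3 made up 51.7%, 48.0% and 50.4% in progesterone libraries, against 35.9%, 32.5% and 32.0% in control libraries. The share averaged 50.1% ± 1.85 with progesterone and 33.4% ± 2.15 in controls (SD, n = 3 each; exact permutation test, two-sided p = 0.1, the smallest possible, and 0.133 adjusted over the 4 quantities). Npr2 held 35.0% ± 1.88 with progesterone and 45.9% ± 0.715 in controls, and Npr1 15% ± 0.696 with progesterone and 20.6% ± 1.78 in controls (SD, n = 3 each). Npr2 was the most abundant receptor mRNA per length in the controls, and Npr3 in the progesterone libraries.

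**Figure D3:**
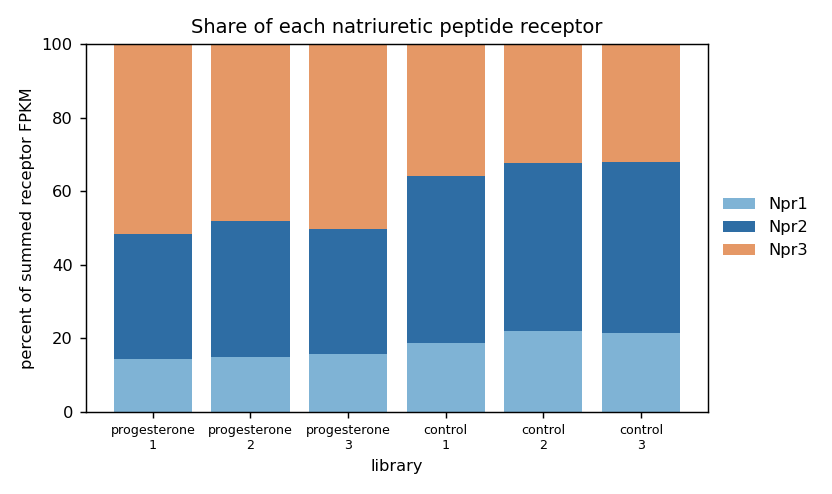
Percent of the summed receptor FPKM held by Npr1, Npr2 and Npr3 (stacked from the bottom) in each library, progesterone libraries left and control libraries right. Npr3 holds 48.0% to 51.7% in the 3 progesterone libraries and 32.0% to 35.9% in the 3 control libraries.

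Mme, which encodes neprilysin, the target of the heart failure drug sacubitril, had the largest change. It had 15.1, 12.6 and 14.2 CPM in progesterone libraries, against 89.6, 90.5 and 96.7 CPM in control libraries. The lowest control library was far above the highest progesterone library. The fall was 6.61-fold (log2 fold change -2.73 ± 0.07, SE; adjusted p = 7.79e-15, edgeR), and 913 counts over the progesterone libraries stood against 6594 over the control libraries. Neprilysin also cleaves enkephalins, bradykinin and other peptides and, as CD10, marks some leukocytes and stromal cells. Its row lies at 153803349 to 153880738 on the plus strand of chromosome 2.

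Markers of the cell types that could be in the culture were counted in the same way. Of all genes tested, 31.2% were called higher and 31.8% lower. A list with calls in both directions is thus not in itself a result about its cell type. Of 11 cardiomyocyte markers, 6 were higher and 3 (Tnnt2, Myh6 and Pln) lower. The 11 together had 17680 to 20265 CPM in progesterone libraries, against 16462 to 17095 CPM in controls. Actc1, the largest term of that sum, averaged 7514 CPM with progesterone and 4627 CPM in controls. Myh6 averaged 3498 CPM with progesterone and 4384 CPM in controls. Atrial markers, which accompany Nppa in the heart, held 5 higher and 1 lower of 8 tested (469 to 529 CPM with progesterone and 410 to 430 CPM in controls), and Kcna5 was too low to be tested. The list taken as ventricular, whose genes are not all confined to the ventricle, held 2 higher and 3 lower of 6 tested. Hey2 and Kcne1 were higher, Myl2, Myl3 and Irx4 were lower, and Gja5 was not called. With upper quartile scaling it held 3 higher and 1 lower. Its summed level was 1348 to 1432 CPM with progesterone and 1497 to 1576 CPM in controls, and Rasl10b had no count. Endothelial markers held 2 higher and 4 lower genes of 9 (519 to 605 CPM with progesterone and 668 to 758 CPM in controls). Fibroblast markers held 5 higher and 3 lower of 9 (37051 to 40023 CPM with progesterone and 27568 to 28664 CPM in controls). Col1a1 and Col3a1 made up most of that sum, and Col3a1 averaged 13735 CPM with progesterone and 6556 CPM in controls. The 3 lower were Ddr2, Pdgfra (370 against 804 CPM in controls) and Dcn (946 against 2094 CPM in controls). The markers of smooth muscle and pericytes held 9 higher and 1 lower of 10 (5602 to 6193 CPM with progesterone and 2364 to 2729 CPM in controls). Leukocyte markers held 4 higher and 1 lower of 6 tested (161 to 182 CPM with progesterone and 45.7 to 62.8 CPM in controls), while Cd3e and Cd79b had no count. Lyz2 alone averaged 110 CPM with progesterone and 7.06 CPM in controls. Cd74, the 1 lower, averaged 1.63 CPM with progesterone and 12.6 CPM in controls. Epicardial and mesothelial markers held 4 higher and 3 lower of 8 (210 to 236 CPM with progesterone and 165 to 178 CPM in controls). Schwann cell and neuron markers held 2 higher and 1 lower of 5 tested (34.6 to 39.9 CPM with progesterone and 35.9 to 46.2 CPM in controls). So the culture labelled as cardiomyocytes carried the defining cardiomyocyte mRNAs together with much fibroblast mRNA in both groups. The part of these cell types in the changes of the 9 genes was not tested.

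Set against the cardiomyocyte markers of the same library, BNP mRNA was higher with progesterone, while for ANP mRNA the groups overlapped or not depending on how the markers were combined. The ratio of Nppb FPKM to the summed FPKM of the 11 markers was 0.0930, 0.0952 and 0.0918 in progesterone libraries, against 0.0754, 0.0795 and 0.0656 in control libraries. That is 1.27-fold higher with no overlap (exact permutation test, two-sided p = 0.1, the smallest possible, and 0.133 adjusted), a log2 difference of 0.35. Against Tnnt2 alone, cardiac troponin T, whose mRNA was lower with progesterone, the log2 difference for Nppb was 0.94. For Nppa the ratio was 0.561, 0.529 and 0.534 in progesterone libraries, against 0.526, 0.533 and 0.455 in control libraries. That is 1.07-fold higher with overlap (exact permutation test, two-sided p = 0.2, and 0.2 adjusted). The log2 difference for Nppa was 0.10, or 0.03 without control replicate 3. With counts in place of FPKM it was 0.22, with the mean log2 FPKM of the same markers 0.24 and against Tnnt2 alone 0.70, and in each of these the groups did not overlap (exact permutation test, two-sided p = 0.1). Actc1, the largest term of the summed markers, averaged 5022 FPKM with progesterone and 3096 FPKM in controls. The size of both differences thus depends on which cardiomyocyte mRNAs they are set against and how these are weighted.

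The change of Nppa and Nppb was not shared by all genes around them. Of 5 other genes tested within 100 kb of the pair and reported here, 1 was higher, 2 were lower and 2 were not called. Clcn6, a chloride transporter gene that ends 2110 bases beyond the end of Nppa on the opposite strand, had a log2 fold change of 0.03 ± 0.05 (SE; adjusted p = 0.661, edgeR), and was called higher with upper quartile scaling alone (0.12, adjusted p = 0.0345). RGD1305350 rose slightly (0.13 ± 0.04, SE), a call lost without progesterone replicate 3 (adjusted p = 0.0559). Plod1, a collagen lysyl hydroxylase gene, and Agtrap, which encodes a protein that binds the angiotensin II receptor, fell (-0.86 ± 0.08 and -1.02 ± 0.08, SE). Mfn2, a mitochondrial fusion gene, had 0.10 ± 0.09 (SE; adjusted p = 0.321, edgeR). AC094126.1, with 7 counts over the progesterone and 5 over the control libraries, was too low to be tested. Whether reads were counted by strand is not stated, so overlapping transcripts on opposite strands could not be told apart.

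**Figure D4:**
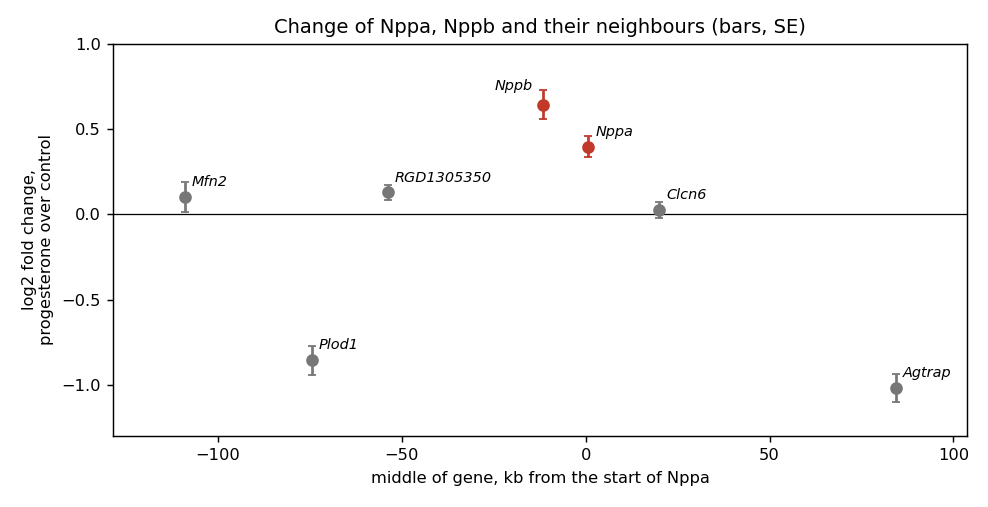
Fitted log2 fold change of progesterone over control (bars, SE) for Nppa and Nppb (red) and the 5 other tested genes reported here within 100 kb (grey), by the distance of each gene's middle from the start of Nppa in kb. Nppb and Nppa lie above 0.39, Clcn6 next to Nppa lies at 0.03, and Plod1 and Agtrap lie below -0.85.

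Most transcription factors known to act on the promoters of Nppa and Nppb were higher or not called. Of 18 tested, 11 were higher, 2 were lower and 5 were not called. Over all genes tested, 31.2% were called higher and 31.8% lower. The median log2 fold change of the 18 was 0.22, while that of all genes tested was 0.0033. The list was not split into activators and repressors, and the 11 include Rest, Hey2 and Tbx3. The count thus gives no direction for the hormone genes. Srf, serum response factor, had 195, 196 and 192 CPM in progesterone libraries, against 107, 107 and 101 CPM in control libraries, a rise of 1.85-fold (adjusted p = 4.67e-11, edgeR). Nkx2-5, the cardiac homeobox factor, rose 1.34-fold and Mef2a 1.22-fold. Nfatc4, a calcineurin-dependent factor, fell 2.36-fold (22.9 ± 0.583 CPM with progesterone and 54.1 ± 2.09 CPM in controls; SD, n = 3 each). Smooth muscle markers, many of them SRF targets, were higher in the same libraries. The part of those cells in the rise of Srf was not tested.

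The soluble guanylyl cyclases, which make cyclic GMP in answer to nitric oxide and not to natriuretic peptides, moved opposite to Npr1 and Npr2. Of 9 other guanylyl cyclase genes, 3 were tested, all of them subunits of the soluble enzyme. All 3 were higher, against 31.2% of all genes tested, and 2 of the 3 with library size scaling. Their median log2 fold change was 0.64, the value of Gucy1a2, against 0.0033 over all genes tested. Gucy1b1 had 51.7, 50.5 and 45.0 CPM in progesterone libraries, against 25, 24.2 and 23.5 CPM in control libraries, a rise of 2.02-fold (adjusted p = 2.01e-09, edgeR). Gucy1a1 rose 1.47-fold. Gucy1a2, at 123 counts over the progesterone and 86 over the control libraries, passed narrowly (adjusted p = 0.0451, edgeR). It lost its call in 11 of 15 alternatives, among them each fit without 1 library other than progesterone replicate 1 (adjusted p 0.0576 to 0.252, edgeR) and DESeq2 (0.111). Smooth muscle and pericyte cells, whose markers were higher, are a known site of soluble guanylyl cyclase, and their part was not tested.

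Targets of the cyclic GMP-dependent kinases were higher in 3, lower in 2 and not called in 1 of 6 tested, or 4 higher and 1 lower with upper quartile scaling. The shares over all genes tested, in the reported fit, were 31.2% higher and 31.8% lower. Irag1, which encodes a kinase substrate that restrains calcium release, rose 1.87-fold. Rgs4 and Rgs2, both regulators of G protein signalling, moved apart: Rgs4 rose 2.17-fold, and Rgs2, which the kinase activates in smooth muscle, fell 2.55-fold. Rgs2 had 34.9, 32.9 and 33.7 CPM in progesterone libraries, against 92.5, 89.3 and 76.7 CPM in control libraries, with no overlap. Ppp1r12a, a myosin phosphatase subunit, rose 1.14-fold. Prkg1 is not analysed here, and Prkg2 and Kcnma1 were too low to be tested.

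Enzymes and pumps that remove cyclic GMP were higher in 4, lower in 5 and not called in 1 of 10 tested. Among all genes tested, 31.2% were called higher and 31.8% lower. The median log2 fold change of the 10 was -0.03, or 0.07 with upper quartile scaling. Pde5a, the target of sildenafil, rose 1.71-fold (15.8 ± 1.58 CPM with progesterone and 9.23 ± 0.841 CPM in controls; SD, n = 3 each). Pde9a, known in mouse heart for breaking down cyclic GMP made in answer to natriuretic peptides, fell 3.45-fold and was low in both groups (1.14 ± 0.215 CPM with progesterone and 3.96 ± 0.359 CPM in controls; SD, n = 3 each). Pde1c fell 4.09-fold, also at low levels, and Abcc4, a cyclic nucleotide exporter, fell 1.53-fold. Pde11a is not analysed here.

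Of 6 other proprotein convertase genes tested, 1 was higher, 3 were lower and 2 were not called. RLE or library size scaling gave 4 lower, and upper quartile scaling 2 lower. The reported fit called 31.2% of all genes tested higher and 31.8% lower. Pcsk6, the protease that activates corin in mice and in human cells, fell 1.27-fold (34.5 ± 0.85 CPM with progesterone and 43.8 ± 1.18 CPM in controls; SD, n = 3 each). Pcsk7 fell 1.10-fold, a call lost with upper quartile scaling (adjusted p = 0.483), with DESeq2 (0.0929) and without progesterone replicate 1 (0.0566), progesterone replicate 3 (0.0788) or control replicate 1 (0.0840). Mbtps1, site-1 protease, rose 1.09-fold, a call lost without progesterone replicate 3 (adjusted p = 0.0606) or control replicate 2 (0.0664).

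Of 9 other peptidase genes tested, 2 were higher, 3 were lower and 4 were not called, or 4 higher and 2 lower with upper quartile scaling. For comparison, 31.2% of all genes tested were higher and 31.8% lower in the reported fit. Ece1, endothelin-converting enzyme, fell 1.79-fold (94.9, 100 and 99.6 CPM in progesterone libraries, against 174, 179 and 175 CPM in control libraries). Ace, angiotensin-converting enzyme, fell 1.86-fold (32.8, 39.4 and 41.0 CPM in progesterone libraries, against 66.1, 69.0 and 75.9 CPM in control libraries). Dpp4, a peptidase that trims BNP in humans, rose 2.35-fold, and Fap rose 1.59-fold. These falls of Ece1 and Ace were smaller than that of Mme, 6.61-fold, though the difference between genes was not tested.

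Genes of the secretory granule moved both ways, with 3 higher, 2 lower and 1 not called of 6 tested. So did all genes tested, with 31.2% higher and 31.8% lower. Pam, whose amidating enzyme is an abundant membrane protein of atrial granules, fell 1.18-fold, and Cpe, carboxypeptidase E, rose 1.18-fold. Scg2, secretogranin II, rose 8.20-fold (10.9, 15.8 and 13.1 CPM in progesterone libraries, against 1.46, 1.42 and 1.97 CPM in control libraries; adjusted p = 6.88e-10, edgeR). Scg5 rose 2.58-fold at low counts, a call lost without progesterone replicate 3 (adjusted p = 0.0722, edgeR). Ostn, which encodes osteocrin, a muscle and bone ligand of the clearance receptor, had no count in any of the 6 libraries, which allows up to 3 counts over each group.

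**Figure D5:**
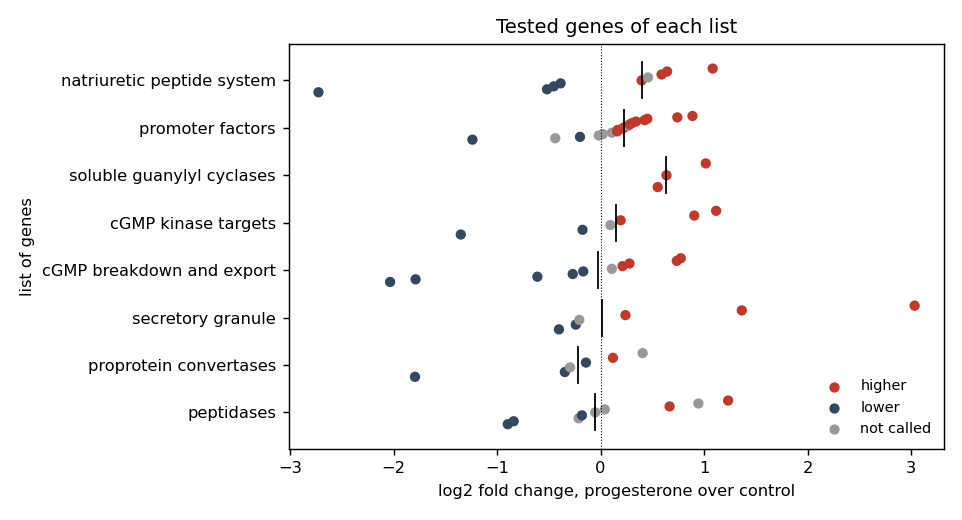
Fitted log2 fold change of progesterone over control for each tested gene of the 9-gene system and of 7 related lists (rows), coloured by call (red higher, dark blue lower, grey not called), with a black bar at each list's median. Medians run from -0.22 for proprotein convertases to 0.64 for soluble guanylyl cyclases, and the 9 genes have a median of 0.40.

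The genes closest to each of the 9 in their profile over the 6 libraries were found by the root mean square distance of centred log2 CPM values, among 9615 other genes of at least 10 CPM. For Nppa these were Banf1 (0.0211 log2 units) and LOC102555453 (0.0241), and for Nppb Btg2 (0.0344) and Mob3a (0.0388). For Npr3 they were Cdk4 (0.0304) and Sae1 (0.0324), for Npr1 Pfkfb2 (0.0236) and Strn (0.0293), and for Npr2 Ppp1r3d (0.0215) and Sh3bgrl3 (0.0307). For Furin they were Lrpap1 (0.0179) and Fuca1 (0.0187), and for Mme Cx3cl1 (0.0732) and Penk (0.0783), the gene of proenkephalin. Nppc and Corin had no gene as close, with Pinx1 (0.167) and Lynx1 (0.185) nearest to Nppc and AC134224.2 (0.197) and Whrn (0.2) nearest to Corin. Nppc and Corin averaged at most 2.80 CPM in a group, below the 10 CPM asked of the other genes. Counting noise widens their distances, so these do not show that their profiles are distinctive. With 2 groups of 3 libraries, such a distance mostly reflects a similar difference between the groups.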

How the data were processed

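The mRNA of 3 progesterone and 3 control samples, grouped by title, had been sequenced from TruSeq libraries, per the labels' protocols. The authors deposited raw counts per gene and FPKM values per gene. Bowtie 0.12.2 is listed in the submitters' processing notes, together with mm8, which is a mouse assembly, while row identifiers are those of rat Ensembl. The sources used here name no counter, rat annotation or strand setting. Libraries held 21156793 to 25376220 counts, and 682 rows without a gene name took 0.826% to 0.896% of them and were kept in the fit.

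Counts of all rows were fitted with edgeR 4.0.16 in R 4.3.3 (rows kept by filterByExpr at min.count 10 and min.total.count 15, TMM factors of 0.984 to 1.01, robust glmQLFit and glmQLFTest, Benjamini-Hochberg at 0.05 over all 15075 genes tested). The SE was derived from the F statistic, and folds were taken from the fitted log2 values. Floors of 3 counts and counting intervals cover counting error only. Other settings tried were scaling by RLE, by upper quartile or by library size, no filter, 1 CPM in 3 libraries, each replicate left out, a replicate block, DESeq2 1.42.0, and limma 3.58.1 on log2(FPKM + 1) and log2(FPKM + 0.1). Replicates of a group differed beyond counting noise (chi-square over degrees of freedom 5.39 to 9.33). The fit was also run on simulated counts drawn from its own fitted dispersions, with few genes changed. That run does not check calls or scaling where most genes are called, as they were here.

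The 9 genes and all lists were chosen with earlier results of these data known. Named genes are the 9, up to 4 tested genes per list with the smallest adjusted p, named rows within 100 kb of Nppa or Nppb, and the 2 nearest profiles of each of the 9 (log2 of CPM + 0.5). Of these, 2 genes are not reported here. Where a symbol repeated, the row with the highest total count was used, and Irag1 was read from its older symbol Mrvi1.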

Additional observations from a re-analysis of the deposited data

How the results depend on the processing

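Each of the 9 genes kept its direction and its side of the 0.05 threshold in all 135 gene-by-alternative results, and 8 of the 9 were called in each of the 15 alternatives. The log2 fold change ran from 0.32 to 0.49 for Nppa, 0.57 to 0.74 for Nppb, 0.36 to 1.35 for Corin, 0.55 to 0.69 for Npr3, -0.54 to -0.42 for Furin, -0.54 to -0.36 for Npr1, -0.45 to -0.29 for Npr2 and -2.78 to -2.48 for Mme. For Nppc, never called, it ran from 0.13 to 0.66, with adjusted p from 0.0721 to 0.735. Over all genes, DESeq2 called 8702 and the replicate block 9508, against 9497 as reported, and leaving out a library gave 8686 to 9131. Upper quartile scaling moved the median of all genes to 0.10. Same-numbered libraries shared little (correlations of their deviations from the group means 0.0263 to 0.0754, all under 0.1), and not every library correlated best with its own number, so the numbers were not taken as pairs. The block changed no call among the 9 genes, and with numbers permuted in pairs the Nppa to Nppb ratio had an exact p of 0.25, the smallest that 3 pairs can give. The 4 within-library quantities kept their direction in all 36 settings. Of the 33 other named genes, 472 of 493 gene-by-alternative results, a check added after seeing the data, kept direction and call, 20 lost the call and 1 gained it, and none reversed. Corin and Nppc rest on 94 to 184 counts per group, which limits their precision.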

Other observations

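Gucy2g, a membrane guanylyl cyclase gene on the list of other cyclases and too low to be tested, had 0, 0 and 1 counts in progesterone libraries, against 11, 10 and 24 counts in control libraries. The control to progesterone ratio of pooled counts was 41.6 (95% counting interval 7.09 to 1678, counting error only). Vgf, a secretory granule gene also too low to be tested, had 10, 7 and 15 counts in progesterone libraries, against 4, 1 and 1 counts in control libraries. Both were singled out after their values were seen.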
